A study of Mus musculus with 2 samples.

Results

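The glucocorticoid receptor gene Nr3c1, the mineralocorticoid receptor gene Nr3c2, the steroid-activating enzyme gene Hsd11b1 and 5 genes widely used as readouts of glucocorticoid action, Fkbp5, Sgk1, Zbtb16, Dusp1 and Mt2, were examined for open chromatin in the postnatal mouse heart. These 8 genes were chosen by name from a list of 21911 protein-coding genes in GENCODE release M21 on the mm10 assembly. Peaks and footprints were collected over each gene body and 50 kb either side, and a promoter was 1 kb either side of any annotated start. Heart tissue came from male B6CASTF1/J mice aged 14 days, the F1 cross of C57BL/6J and CAST/EiJ, and was profiled by DNase-seq. In this assay the enzyme DNase I cuts the DNA of isolated nuclei where chromatin is accessible. There was 1 group with 2 biological replicates, and the labels name no treatment, hormone state or second age. Replicate 1 is labelled as 3 males, and how many animals gave replicate 2 is not stated, nor is pooling, so an SD over the 2 replicates may set a pool beside a single heart.

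Glucocorticoids, chiefly corticosterone in the mouse, are released by the adrenal cortex and enter cells, where Hsd11b1 can regenerate the active hormone from its inactive keto form. The hormone binds the glucocorticoid receptor or the mineralocorticoid receptor, which are held ready by heat shock protein chaperones, and the receptor then enters the nucleus. There a receptor dimer binds a palindromic DNA element, and nearby genes are switched on; in heart muscle both receptors are known to act on contractile function and growth. Among the classic targets, Fkbp5 encodes a co-chaperone that lowers the receptor's affinity for hormone and so closes a feedback loop. Sgk1 encodes a kinase that regulates ion channels and transporters, Zbtb16 a zinc finger transcription factor, Dusp1 a phosphatase that switches off MAP kinases, and Mt2 a metal-binding metallothionein.

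The palindrome searched for was AGAACA, any 3 bases, then TGTTCT, which gives 12 fixed letters in 15. Because the element is its own reverse complement, 1 search covers both strands. The following 15-base stretches of mm10 are the 4 exact matches within the windows of the 8 genes and the 1 single-mismatch match that lay in a region open in both replicates. Capitals mark letters that match the element, and lower case marks the 3 free bases and any mismatch.
Sgk1, chr10:21993701-21993715: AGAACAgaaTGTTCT
Fkbp5, chr17:28420321-28420335: AGAACAcccTGTTCT
Fkbp5, chr17:28442419-28442433: AGAACAagcTGTTCT
Nr3c2, chr8:76875319-76875333: AGAACAtacTGTTCT
Zbtb16, chr9:48775824-48775838: AGgACAgaaTGTTCT
The Zbtb16 match carries the substitution A3G, with the element's base first and positions counted from its 5′ end. The intronic Fkbp5 match at chr17:28420321-28420335 lay in a region with a peak in both replicates. The Sgk1 match lay just outside such a region. Its bases were listed as accessible in both replicates, in replicate 2 at a lowest FDR of only 0.0183. The Fkbp5 match at chr17:28442419-28442433 and the Nr3c2 match had no base listed as accessible in either. All sequences are of the C57BL/6J reference, and the CAST/EiJ copy carried by these F1 mice may differ from them.

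The promoters of all 8 genes held a peak in both replicates (8 of 8), as did 68.8% of all protein-coding genes (15069 of 21911). The strongest promoter peak of a gene, in the authors' deposited signal, averaged 17.6 ± 1.87 at Fkbp5, 16.7 ± 2.15 at Sgk1, 15.3 ± 0.737 at Dusp1, 12.4 ± 2.70 at Nr3c2 and 12.01 ± 3.43 at Nr3c1 (SD, n = 2). Zbtb16 followed with 8.35 ± 0.162, and Hsd11b1 with 3.92 ± 0.473 and Mt2 with 2.90 ± 0.559 were lowest (SD, n = 2). Fkbp5, Sgk1 and Dusp1 stood in this order within each replicate, although the spread of the 2 replicates overlapped between Fkbp5 and Sgk1 and between Sgk1 and Dusp1. Nr3c1 and Nr3c2 changed places between the replicates. Zbtb16, Hsd11b1 and Mt2 each stood apart from the gene above them in both replicates. Of the 8 genes, 6 lay above 6.60, the median over all genes open in both replicates.

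**Figure D1:**
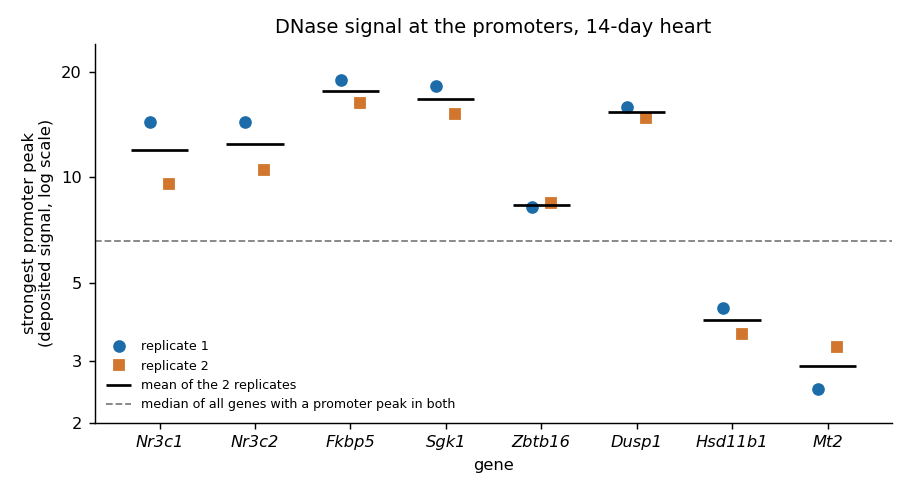
Strongest promoter peak of each gene (deposited DNase signal, log axis) in replicate 1 (circles) and replicate 2 (squares), with their mean as a bar and the median of all genes open in both replicates as a dashed line. Fkbp5, Sgk1, Dusp1, Nr3c1, Nr3c2 and Zbtb16 lie above the line at 6.60 in both replicates, and Hsd11b1 and Mt2 below it.

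The label of the tissue was checked against markers. Promoters of 7 of 7 heart muscle genes, 3 of 3 endothelial genes, 3 of 3 fibroblast genes and 2 of 2 smooth muscle genes held a peak in both replicates, counts that stand beside the 68.8% of all protein-coding genes that were open. The heart muscle promoters had a median mean signal of 2.36, below the 2.86 of all protein-coding genes. They ran from Nppa, with 0.397 in replicate 1 and 0.382 in replicate 2, to Gata4, with 7.43 and 6.51. Myh6 had 1.88 and 1.12. Of 3 leukocyte genes only Spi1 had a promoter peak in both replicates. Its 1.45 in replicate 1 and 1.48 in replicate 2 lay within the range of the heart muscle genes. Neither replicate had a promoter peak at Ptprc, at Cd3e or at the 2 liver and 2 lung genes. The values for the 8 genes are sums over the cells of the tissue, whose make-up was not measured, and a site open in few cells cannot be told apart from one weakly open in many. With read totals not given in the sources used here, the spacing of the signal is the only sign of depth. All values below a signal of 1 (100%, within 0.02 of a step) were multiples of a step of 0.00709 for replicate 1 and of 0.00597 for replicate 2. The median peak of replicate 1 stood 110 such steps above zero, and that of replicate 2 stood 122.

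Nr3c1 (chr18:39410545-39519421, minus strand) encodes the glucocorticoid receptor and has 9 annotated starts, which give the same protein-coding body several alternative first exons. Of these starts, 8 had a peak within 1 kb in both replicates. The strongest region, chr18:39491601-39491780, reached 14.4 in replicate 1 and 9.58 in replicate 2, upstream of the starts of Nr3c1-205 and Nr3c1-207. Farther into the gene, chr18:39489781-39490120 had 8.59 in replicate 1 and 8.61 in replicate 2, and chr18:39490161-39490820 had 4.74 and 4.57. The replicates differed at the strongest region and were nearly equal at the other 2. A region just inside them, chr18:39489201-39489660, was a peak in replicate 2 alone with a signal of 3.46, the highest of any region around the 8 genes with a peak in a single replicate. Its bases were listed as accessible in both, with a lowest FDR of 1.11e-19 in replicate 1 and 4.36e-20 in replicate 2, so the replicates differed in the peak call. This is CpG-rich sequence: the 300 bp at chr18:39489781-39490120 held 48 CpG dinucleotides and those at chr18:39490161-39490820 held 33, against a median of 17 for all shared regions near starts. The farthest upstream start, of transcript Nr3c1-209 at position 39519421, had only a peak of 0.270 in replicate 1. Away from starts, the receptor gene had 6 regions open in both replicates, led by the intronic region chr18:39460921-39461100 with 5.50 in replicate 1 and 4.54 in replicate 2. That region lies 26.2 kb downstream of the nearest start. None of the 12 element matches with at most 2 mismatches in the Nr3c1 window had a base listed as accessible. That was the usual state, found for 171 of the 191 such matches in the 8 windows.

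Nr3c2 (chr8:76899442-77245012, plus strand) encodes the mineralocorticoid receptor, which in heart muscle binds glucocorticoids as well as aldosterone. Its strongest region, chr8:76902001-76902220, reached 14.3 in replicate 1 and 10.5 in replicate 2 and lay within 1 kb of the starts of 4 transcripts, at 76902288, 76902347 and 76902476. An upstream promoter at chr8:76899061-76899340 had 3.55 in replicate 1 and 4.21 in replicate 2 and is shared with a start of Gm10649. The order of the replicates thus differed between these promoters. The start of Nr3c2-201 at 76908272 and the non-coding start at 77128013 had no peak in either replicate. The gene is 346 kb long, and its 15 shared regions away from starts had a median mean signal of 0.798 and a maximum of 2.16. That median was near the 0.825 of all shared regions away from starts. The 2 strongest were chr8:77276941-77277140 past the gene's end, with 2.15 in replicate 1 and 2.18 in replicate 2, and the intronic chr8:77132961-77133140, with 1.94 and 1.63. The 36 element matches in the Nr3c2 window, 1 of them exact and 2 with 1 mismatch, had no base listed as accessible.

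Hsd11b1 (chr1:193221634-193264075, minus strand) encodes the enzyme that regenerates active hormone inside the cell. Its promoter signal was 4.26 in replicate 1 and 3.59 in replicate 2, at chr1:193242361-193242560 just inside the first exon of Hsd11b1-201. The start of Hsd11b1-202 held 0.567 in replicate 1 and 0.507 in replicate 2, at separate peaks. The 3 starts at 193239023, 193240410 and 193264075 had no peak in either replicate, the last being the 5′ end of the gene as annotated. An intronic region at chr1:193255621-193255780 reached 4.43 in replicate 1 and 2.83 in replicate 2, a range that spans the values of the promoter. Its window also takes in 5 other coding genes, and 7 of its 14 shared regions lie at their starts or at those of non-coding genes. The highest of these, 12.5 in replicate 1 and 9.03 in replicate 2, belongs to A130010J15Rik. The only element match within a 300-bp window there had 2 mismatches and lay outside the called region, chr1:193262021-193262110, which had 0.390 in replicate 1 and 0.448 in replicate 2.

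Fkbp5 (chr17:28399094-28517527, minus strand), the co-chaperone gene, had the highest promoter signal of the 8 genes and the 96th percentile of all protein-coding genes. It had 2 strong promoters. The one at chr17:28486061-28486320, at the start of Fkbp5-201, had 18.9 in replicate 1 and 16.3 in replicate 2. The one at chr17:28518061-28518260, upstream of the starts of Fkbp5-202 and Fkbp5-206, had 13.1 in replicate 1 and 14.9 in replicate 2. A start inside the gene, that of the non-coding Fkbp5-203, had 3.03 in replicate 1 and 2.95 in replicate 2. Of 14 annotated starts, 6 had a peak in both replicates, 3 in a single replicate and 5 in neither.

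Introns of the human FKBP5 gene are known for hormone response elements. In the mouse heart the intronic exact match lay within chr17:28420221-28420820, a region of 1.36 in replicate 1 and 1.45 in replicate 2. It lies 65.8 kb downstream of the main start, and its signal was near the median of the 19 Fkbp5 regions away from starts, 1.41. The stretch around it is shown because it holds the exact match and, close by, a match with 2 mismatches. It is printed on the gene's (minus) strand of mm10, with both matches in capitals.
Fkbp5 intron, chr17:28420291-28420405: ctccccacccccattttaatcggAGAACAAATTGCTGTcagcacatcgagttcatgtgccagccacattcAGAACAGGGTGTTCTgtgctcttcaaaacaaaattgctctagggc
The 15 bases of the exact match were listed as accessible in both replicates, with a lowest FDR of 4.60e-09 in replicate 1 and 2.41e-05 in replicate 2. No footprint of either replicate overlapped them. The other exact match of the gene, chr17:28442419-28442433, lies in an intron 43.7 kb downstream of the main start and had no listed base.

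Fkbp5 was also surrounded by strong regions without an element: chr17:28528081-28528280 upstream with 7.73 in replicate 1 and 5.78 in replicate 2, and chr17:28368561-28368740 past the gene's end with 6.25 and 4.37. The region chr17:28523081-28523320, 12.1 in replicate 1 and 13.2 in replicate 2, holds a match with 2 mismatches and lies at the starts of E230001N04Rik and Gm20109, not at a start of Fkbp5.

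Sgk1 (chr10:21882184-21999903, plus strand), the kinase gene, held the only exact match within 1 kb of a start that had a peak. Its main region, chr10:21994481-21994720, had 18.2 in replicate 1 and 15.2 in replicate 2, at the start of Sgk1-201. Of its 10 shared regions near its own starts, all but the one at the far upstream start lay in the 3′ cluster of first exons, among them chr10:21991341-21991540 with 7.96 in replicate 1 and 5.26 in replicate 2 and chr10:21993121-21993300 with 5.51 and 5.35. The long transcript Sgk1-204 starts far upstream at 21882184, where the signal was 0.617 in replicate 1 and 0.579 in replicate 2. The starts at 21928470 and 21978672 had no peak.

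The Sgk1 element lies 0.958 kb upstream of the start of Sgk1-201 and 182 bases upstream of that of Sgk1-202. It begins at the base after the end of the shared region chr10:21993481-21993700, which had 1.23 in replicate 1 and 1.06 in replicate 2. The stretch is printed on the plus strand of mm10, with the exact match in capitals.
Sgk1 upstream, chr10:21993641-21993775: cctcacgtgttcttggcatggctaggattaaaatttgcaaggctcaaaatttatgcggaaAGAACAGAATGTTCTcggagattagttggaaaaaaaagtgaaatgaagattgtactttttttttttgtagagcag
All 15 bases were listed as accessible in both replicates, with a lowest FDR of 7.12e-09 in replicate 1 and 0.0183 in replicate 2. At an FDR under 0.001 all 15 were listed in replicate 1 and 0 in replicate 2, so at the stricter level the opening rests on replicate 1. No footprint overlapped the element in either replicate. The largest disagreement between replicates among the 195 shared regions was also at Sgk1: chr10:21995361-21995540 had 2.21 in replicate 1 and 0.734 in replicate 2.

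Zbtb16 (chr9:48654297-48836222, minus strand), the transcription factor gene, was the only one of the 8 in whose window the strongest region lay away from any annotated start. Its promoter, chr9:48835861-48836560, had 8.23 in replicate 1 and 8.46 in replicate 2, while the intronic region chr9:48740261-48740420 had 18.6 in replicate 1 and 17.4 in replicate 2. The 2 replicates of the intronic region both lay above both of the promoter. It lies 95.6 kb downstream of the nearest start and is one of 32 Zbtb16 regions away from starts, the largest such number among the 8 genes. The region is shown because it is the strongest; it is printed on the gene's (minus) strand of mm10, and capitals mark the 67 of 160 bases that lay in footprints of both replicates.
Zbtb16 intron, chr9:48740261-48740420: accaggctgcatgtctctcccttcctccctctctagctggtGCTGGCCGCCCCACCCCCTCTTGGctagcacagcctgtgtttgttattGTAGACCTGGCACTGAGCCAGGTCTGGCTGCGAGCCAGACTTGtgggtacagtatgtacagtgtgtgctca
Footprints covered 71 bases in replicate 1 and 74 in replicate 2, so the protected stretches were nearly the same. No element match lay within it. A neighbouring intronic region, chr9:48737541-48737820, had 9.91 in replicate 1 and 6.22 in replicate 2 and holds a match with 2 mismatches. The single-mismatch match printed above lies in the region chr9:48775680-48775868, with 0.851 in replicate 1 and 0.913 in replicate 2. Its bases were listed at a lowest FDR of 0.0109 in replicate 1 and 0.00358 in replicate 2, and no footprint overlapped it.

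Dusp1 (chr17:26505590-26562128, minus strand), the MAP kinase phosphatase gene, had 42 shared regions, the most of the 8 genes, of which 28 lay away from starts. Its promoter region chr17:26508401-26508840 had 15.8 in replicate 1 and 14.8 in replicate 2. The upstream starts at 26561499 and 26562128 had 11.0 in replicate 1 and 10.2 in replicate 2 at a region that also lies at a start of Ergic1. Strong regions lay on both sides, with 6.66 in replicate 1 and 5.44 in replicate 2 at chr17:26466761-26466940 and 6.60 and 5.13 at chr17:26584561-26584780. Dusp1 is also an immediate early gene, and the cyclic AMP response element TGACGTCA (CRE) is a known site in its promoter. The 200 bases upstream of the start of Dusp1-202 are printed on the gene's (minus) strand of mm10, with the CRE in capitals, because that site was protected in both replicates.
Dusp1 promoter, chr17:26508520-26508719: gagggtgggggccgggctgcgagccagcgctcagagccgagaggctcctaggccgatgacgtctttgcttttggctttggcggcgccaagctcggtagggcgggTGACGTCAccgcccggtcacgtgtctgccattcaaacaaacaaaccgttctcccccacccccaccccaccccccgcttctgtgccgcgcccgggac
All 8 bases of the CRE, chr17:26508608-26508615, lay in footprints of replicate 1 and of replicate 2. A CRE was found, on either strand, in 4 of the 70 shared regions near starts around the 8 genes, counted in 300 bp. This share was 5.71%, with an exact binomial interval of 1.58 to 14.0 that includes the 1.97% of all 32445 such regions. Among the regions with a CRE, only the Dusp1 promoter lay at a start of the gene examined. The others lay at starts of AC122252.3, AC122252.1 and A130010J15Rik. Away from starts the CRE was in 0 of 125, which allows a share of up to 2.4%, against 0.504% of all 72178 regions.

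Past the 3′ end of Dusp1, chr17:26504341-26504640 had 3.57 in replicate 1 and 2.64 in replicate 2 and held 3 matches with 2 mismatches each, the most in any shared region around the 8 genes. It is printed on the gene's (minus) strand of mm10 with the matches in capitals.
Dusp1 downstream, chr17:26504341-26504488: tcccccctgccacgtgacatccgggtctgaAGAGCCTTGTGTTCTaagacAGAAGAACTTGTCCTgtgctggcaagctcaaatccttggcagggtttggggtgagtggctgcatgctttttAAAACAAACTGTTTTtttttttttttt
The match next to the run of T at the end of this stretch, chr17:26504353-26504367, was the only match around the 8 genes that footprints of both replicates overlapped. The largest overlap with a single footprint was 4 of its 15 bases in replicate 1 and 1 in replicate 2. Bases covered by all footprints together were not counted. Whether the low-complexity run affects the footprint calls was not tested.

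Mt2 (chr8:94172664-94173568, plus strand), the metallothionein gene, had the lowest promoter signal of the 8, with 2.50 in replicate 1 and 3.29 in replicate 2 at chr8:94172581-94172820. That region also lies at a start of the antisense gene Gm45774. The promoter of its neighbour Mt1, 6.26 kb downstream, had 7.92 in replicate 1 and 7.25 in replicate 2, above Mt2 in both replicates. A region upstream, chr8:94167361-94167560, had 6.48 in replicate 1 and 5.98 in replicate 2 and was the strongest of the 8 Mt2 regions away from starts. Metallothionein promoters are known for metal response elements (MRE), searched here as TGCACNC or TGCGCNC on either strand. The 200 bases upstream of the start of Mt2-201 are printed on the plus strand of mm10 with these letters in capitals.
Mt2 promoter, chr8:94172464-94172663: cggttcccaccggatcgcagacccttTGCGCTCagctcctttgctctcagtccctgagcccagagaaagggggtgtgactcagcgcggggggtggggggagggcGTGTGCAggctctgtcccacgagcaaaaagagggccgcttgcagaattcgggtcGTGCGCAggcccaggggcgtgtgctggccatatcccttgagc
Of the 3 matches in capitals only the last, chr8:94172622-94172628, lay in the open region. Its largest overlap with a single footprint was 4 bases in replicate 1 and 6 in replicate 2. The open region held 4 matches in all, the other 3 downstream of the start. Of those, the matches beginning at 94172676 and 94172729 overlapped a single footprint of replicate 2 by at most 5 and 2 bases and none of replicate 1. The one at 94172695 overlapped none. The letters are common: 26 of 70 shared regions near starts around the 8 genes held them, against 35.0% of all such regions. A glucocorticoid element match with 2 mismatches lay 1.12 kb upstream of the start at chr8:94171535-94171549, in a region of 1.03 in replicate 1 and 0.973 in replicate 2.

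The 8 windows held 293 merged regions, of which 195 (66.6%) had a peak in both replicates, against 65.8% of all 158902 merged regions. Of the 195, 39 lay near a start of the gene itself, 31 near a start of another gene and 125 (64.1%) away from any start, against 69.0% away over all 104623 shared regions. Those away from starts had a median mean signal of 1.41 around the 8 genes, against 0.825 over all. The 8 genes are long, with a median length of 113298 bases against 17425 for all protein-coding genes. Per 100 kb of window, their median was 11.3 shared regions, against 6.71 over all protein-coding genes. Dusp1 was highest with 26.8 per 100 kb, and Nr3c2 with 4.49 and Nr3c1 with 5.75 lay below the median of all genes.

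**Figure D2:**
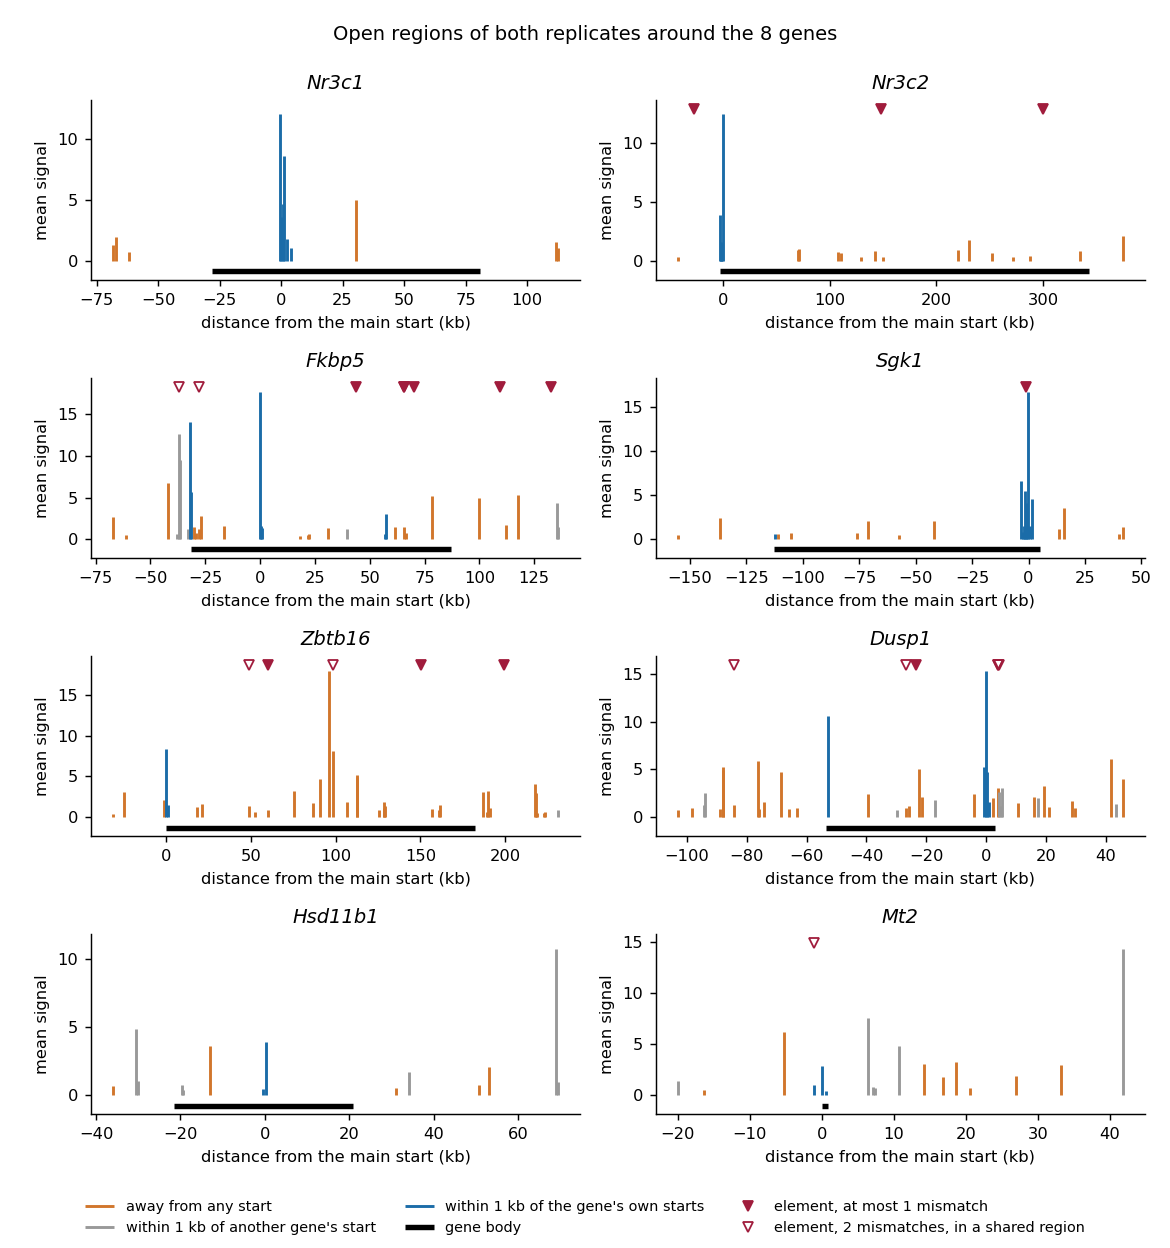
Regions open in both replicates around each gene: the height of a line is the mean signal of the 2 replicates and its position the distance from the main start in kb, positive in the direction of transcription. Filled triangles mark element matches with at most 1 mismatch, open or closed, and empty ones matches with 2 mismatches inside a shared region. The strongest line lies at the gene's own start in Nr3c1, Nr3c2, Fkbp5, Sgk1 and Dusp1, in an intron in Zbtb16, and at another gene's start in the windows of Hsd11b1 and Mt2.

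**Figure D3:**
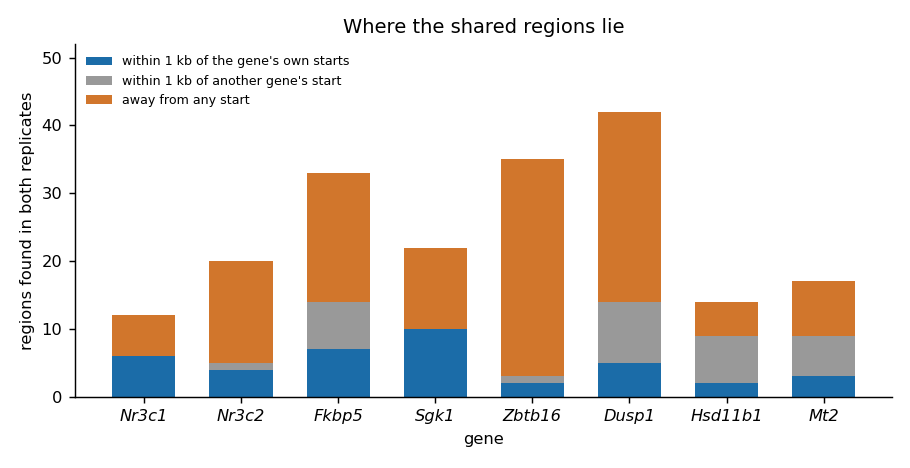
Number of regions open in both replicates in the window of each gene (gene body and 50 kb either side), split by whether they lie within 1 kb of the gene's own starts, within 1 kb of another gene's start, or away from both. Dusp1 has 42 regions and Zbtb16 35, of which 28 and 32 lie away from starts, while Nr3c1 has 12.

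Within 300 bp centred on the stronger peak, 12 of the 195 shared regions (6.15%, exact binomial 95% interval 3.22 to 10.5) held an element match with at most 2 mismatches, against 2.52% of all 104623 shared regions. In the smaller deposited peak set the share was 7 of 141 (4.96%, 2.02 to 9.96), an interval that includes the 2.29% of all. In the larger set these were, by gene, 4 of 35 regions at Zbtb16, 3 of 42 at Dusp1, 2 of 22 at Sgk1, and 1 each at Fkbp5, Hsd11b1 and Mt2. The receptor genes Nr3c1 and Nr3c2 had 0 of 12 and 0 of 20, which allows shares of up to 25% and 15%. With at most 1 mismatch, 2 of 195 (1.03%, 0.124 to 3.66) did so, against 0.297% of all, so the difference could not be resolved at that number of regions. The window counts the Sgk1 match, which adjoins its region, and leaves out the Fkbp5 match, which lies in its region but outside those 300 bp. The intervals cover the counting of regions only, and regions of a gene share a locus.

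In all, 10 motifs were counted in regions near and away from starts. Away from starts, the metal response letters were in 37 of 125 regions (29.6%, 21.8 to 38.4), against 19.4% of all such regions. Over the 10 motifs and 2 classes, this was the only interval that left out the share of all regions. The intervals were not adjusted for the number of motifs counted. Near starts the same letters were in 26 of 70 (37.1%, 25.9 to 49.5), against 35.0%. For the motifs given next, the interval around the 8 genes included the share over all regions. The AP-1 site TGANTCA, bound by Fos and Jun proteins, was in 18 of 125 regions away from starts (14.4%, 8.76 to 21.8), against 12.2% of all such regions. Near starts it was in 6 of 70 (8.57%, 3.21 to 17.7), against 5.95%. Footprints over single AP-1 sites were looked up only inside the called regions at the genes' own starts. At the upstream promoter of Fkbp5 a site at chr17:28518248-28518254 had all 7 bases in footprints of both replicates. The 2 sites found in this way at Sgk1 and the 1 at Mt2 overlapped no footprint. The single arm of the glucocorticoid element, AGAACA on either strand, was in 35 of 125 regions away from starts (28.0%, 20.3 to 36.7), against 25.4% of all, and in 9 of 70 near starts (12.9%, 6.05 to 23.0), against 13.6%. The muscle-related TEAD site GGAATG was in 20 of 125 away from starts (16.0%, 10.1 to 23.6), against 19.0%, and the GATA site AGATAA in 14 of 125 (11.2%, 6.26 to 18.1), against 13.3%.

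Seen from the element, 13 of 191 matches with at most 2 mismatches in the 8 windows lay inside a shared region (6.81%, 3.67 to 11.4), against 0.690% of 275025 in the genome. The 2 shares were not adjusted for how much open chromatin the windows hold. Of the 13 matches with at most 1 mismatch, 2 lay in shared regions, the Sgk1 match adjoined one, and 10 had no base listed as accessible in either replicate.

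Footprints are short stretches inside open chromatin that were protected from DNase I, as the authors called them. Of 395 footprints found in both replicates in the 8 windows, 1 overlapped an element match (0.253%, 0.00641 to 1.40), the Dusp1 match beside the run of T, against 0.174% of all 187080. In replicate 1, 3 of 725 footprints did so, against 0.164% of all, and in replicate 2, 3 of 686, against 0.148% of all. A further 3 matches with 2 mismatches, in regions open in both replicates, were touched by footprints of a single replicate, and are printed on the plus strand with matching letters in capitals.
Dusp1 intron, chr17:26535328-26535342: tGAACAttcTGTTCc
Dusp1 upstream, chr17:26592764-26592778: AGcACAtgcTGTcCT
Zbtb16 intron, chr9:48786984-48786998: AGgACAcagTGgTCT
Overlaps are given as the largest with a single footprint. The intronic Dusp1 match had 6 bases in a footprint of replicate 1 and 0 in replicate 2. The upstream Dusp1 match had 0 in replicate 1 and 2 in replicate 2, and the Zbtb16 match had 0 in replicate 1 and 3 in replicate 2. At these 3 matches the protection seen in a single replicate was not repeated in the other. None of the 13 matches with at most 1 mismatch was overlapped by footprints of both replicates. No hormone state is given by the labels, so these counts describe protection in these hearts only.

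The replicates differed little at these genes. Over the 195 shared regions the log2 ratio of replicate 1 to replicate 2 had a median of 0.15 (SD 0.33), against 0.31 (SD 0.35) over all shared regions. It was positive in 141 of 195 (72.3%), against 80.7% of all. Regions in a single replicate were weaker, with a median signal of 0.518 for the 65 found in replicate 1 alone and 0.430 for the 33 found in replicate 2 alone. Median ratios by gene ran from 0.00 at Fkbp5 to 0.26 at Nr3c1, Nr3c2 and Hsd11b1.

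**Figure D4:**
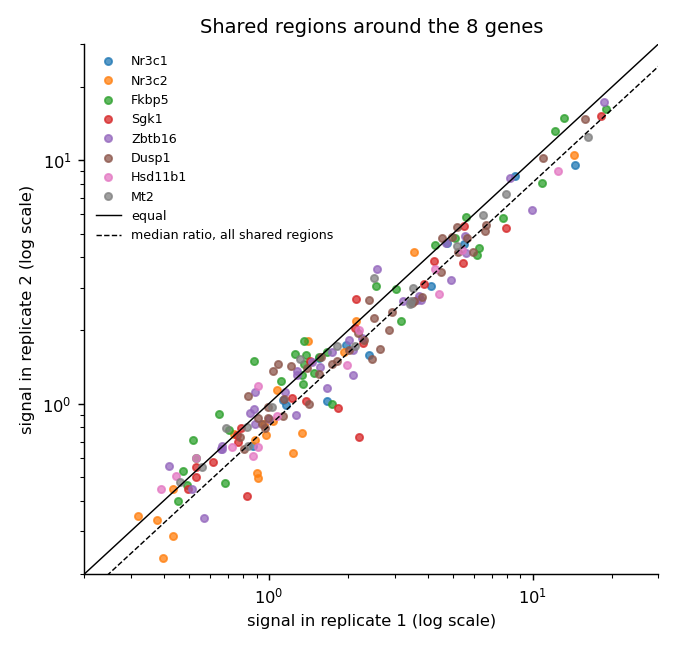
Signal of the 195 shared regions around the 8 genes in replicate 1 and replicate 2 (log axes), coloured by gene, with the line of equal signal (solid) and the median ratio of all shared regions (dashed). Of the 195 points, 193 lie within 2-fold of the dashed line, and the point farthest from it is the Sgk1 region with 2.21 in replicate 1 and 0.734 in replicate 2.

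Beyond the 8, a list of 58 further genes of the pathway was counted by role, and 48 (82.8%) had a promoter peak in both replicates, against 68.8% of all protein-coding genes. All 7 receptor chaperones and co-chaperones were open, led by Hspa8 (24.9 ± 2.67), Stub1 (21.4 ± 4.05) and Hsp90aa1 (20.2 ± 0.0617; SD, n = 2 each). All 9 coregulators were open, led by the coactivator genes Ncoa2 (20.5 ± 6.02), Ep300 (13.1 ± 0.599) and Ncoa3 (12.1 ± 0.766). The 5 genes of steroid handling were open too, with Por at 18.6 ± 2.61, Srd5a1, which reduces steroids, at 15.7 ± 3.83, and H6pd, which supplies the cofactor of Hsd11b1, at 10.9 ± 0.554. Hsd11b2, which inactivates the hormone, had 1.20 ± 0.156, below the 3.92 ± 0.473 of Hsd11b1, and had no promoter peak in both replicates in the smaller deposited peak set.

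Of 30 other known targets, 25 were open. Ddit4, a stress-induced inhibitor of mTOR signalling, had 23.4 ± 3.54, Nfkbia, which encodes an inhibitor of NF-kB, 20.2 ± 0.384, and the survival gene Bcl2l1 18.5 ± 1.53 (SD, n = 2 each). The genes of liver metabolism Tat, Pck1 and G6pc and the epithelial sodium channel gene Scnn1a had no promoter peak in replicate 1 or in replicate 2. Lcn2 had one of 0.681 in replicate 1 alone. Corticosteroid synthesis, an adrenal function, was the group with fewest open promoters, 2 of 7. Cyp17a1 with 2.85 ± 0.393 and Star with 1.02 ± 0.239 had peaks in both replicates (SD, n = 2 each), Cyp21a1 in replicate 1 alone, and Cyp11a1, Cyp11b1, Cyp11b2 and Hsd3b1 had none. Cyp17a1 was no longer open in both replicates when only starts of protein-coding transcripts, or only the 5′ end of the gene, were used. An open promoter is not a measure of transcription, which was not assayed.

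**Figure D5:**
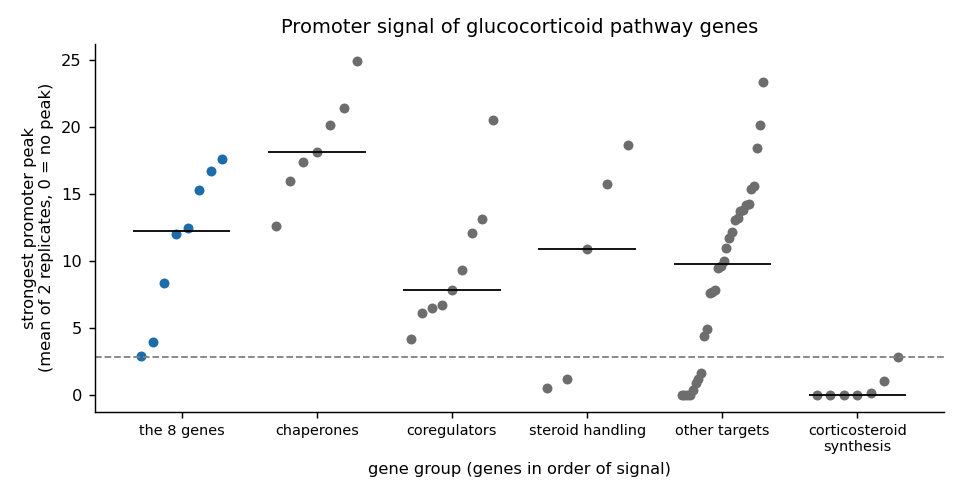
Strongest promoter peak (mean of 2 replicates, 0 where no peak) of the 8 genes and of 58 further pathway genes by role, each point a gene, with group medians as bars and the median of all protein-coding genes, 2.86, as a dashed line. Chaperone genes are highest, with a median of 18.1, and corticosteroid synthesis genes lie at or below the dashed line.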

How the data were processed

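DNase-seq was done on 2 biological replicates of heart from 14-day-old male B6CASTF1/J mice. Peaks, footprints and runs of bases with a low false discovery rate were made by the authors from each replicate's filtered mm10 alignment, per the file headers; callers, read totals and the treatment of CAST/EiJ reads were not given in the sources used here. The unit of the deposited peak signal is not stated; the headers name a read-depth normalized track from the same alignment, and whether the peak signal shares its scaling is unknown. The deposited FDR values, a kind of q-value for DNase cleavage, are listed only under 0.05.

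The larger peak set was used. Peaks of both replicates that overlapped by at least 1 base were merged, a region's value was its highest peak, and a region with peaks of both was called shared. Genes came from GENCODE M21; sequence was read from GRCm38.p6, which is mm10. The element and other motifs were searched in 300 bp around the middle of the stronger peak, and in footprints by 1 base of overlap. Intervals are exact binomial (Clopper-Pearson) 95% intervals, and where the count was 0 the upper limit is that of 3 counts; both cover counting error only. With 1 group, no test between conditions was possible. Overlaps and searches were tested on simulated data. The tools were pysam 0.24.0, matplotlib 3.10.9, scipy 1.17.1, pandas 2.3.3, numpy 2.4.6 and Python 3.11.15.

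The 8 genes and the lists were chosen with earlier results of these data known. The rule for names took the 8 genes with their starts, the strongest shared region away from starts, shared regions and footprints with a match of at most 1 mismatch, the 3 highest genes of each pathway group and genes with no promoter peak. Other regions, the CRE and MRE, neighbouring genes, Hsd11b2, Lcn2 and Cyp21a1 were named after their values were seen. Alternatives covered peak sets, windows, overlap, mismatches and each replicate alone. Reads and alleles were not analysed here.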

Additional observations from a re-analysis of the deposited data

How the results depend on the processing

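No paired analysis was possible because there is 1 group. All 8 promoters stayed open in both replicates with the smaller peak set, windows of 500 bp or 2 kb, coding starts only, the upper 50% of peaks, and with either replicate alone (8 and 8). With the 5′ end of the gene alone the count was 6, without Nr3c1 and Hsd11b1. Pathway genes ran from 44, for the 5′ end alone, to 50, without replicate 2. Without replicate 1 they numbered 48. The share of all protein-coding genes with an open promoter was counted at the main setting only, where it was 68.8%. These alternative counts of open promoters therefore cannot be set beside a share over all genes. The 195 shared regions became 102 in gene bodies alone, since fewer bases are searched, and 229 without replicate 1 and 263 without replicate 2, where 1 replicate sufficed. Joining peaks that touch, chosen after seeing the data, gave 193. The share of shared regions with an element was 1.03% with at most 1 mismatch, against 0.297% of all, and 0.513% (0.0130 to 2.82) for exact matches, against 0.0258% of all. It was 5.68% without replicate 1, against 2.50% of all, 4.94% without replicate 2, against 2.56%, and 5.13% over whole regions, against 1.79%. In the smaller peak set it was 4.96% (2.02 to 9.96), an interval that includes the 2.29% of all, unlike the interval of the main peak set. In gene bodies and promoter windows, chosen after seeing the data, it was 8.49%, against 2.19% of all regions in those of protein-coding genes. Footprints over an element were 0 of 395 with at most 1 mismatch or none (0%), and 0.437% without replicate 1 and 0.414% without replicate 2. With 10 bp either side, 1.01% (0.277 to 2.57) held a match nearby, against 0.339% of all footprints. The median log2 ratio between replicates kept its sign in the 5 alternatives run, from 0.13 to 0.18. The precision is limited by 2 replicates, the small number of matches and the unstated read totals.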
